A study of Mus musculus with 4 samples.

Results

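The genes described here are the core histone cluster genes of the mouse, chosen as every row of the deposited FPKM table whose Ensembl gene identifier has a GENCODE M21 symbol beginning with Hist1h, Hist2h, Hist3h or Hist4h. Of the 23552 rows, 58 met this rule. They fell into 5 genes of class H1, 16 of H2A, 15 of H2B, 10 of H3 and 12 of H4. Genes with a Hist1 symbol, on chromosome 13, made up 50 of them, the Hist2 cluster on chromosome 3 held 4, the Hist3 cluster on chromosome 11 held 3, and Hist4h4 lies alone on chromosome 6. GENCODE M21 annotates 70 such genes, and the other 12 were not analysed here. Of the 58, 3 are annotated as pseudogenes, namely Hist1h2aj, Hist1h2al and Hist3h2bb-ps.

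RNA-Seq covered c-Kit+ leukemic cells enriched from the bone marrow of moribund C57BL/6 mice with acute myeloid leukemia (AML) driven by the MLL-AF9 fusion. The control group had 2 libraries (replicates 3 and 4) of cells that overexpress eGFP, and the SUV-OE group had 2 libraries (replicates 2 and 3) of cells that overexpress Suv39h1, the H3K9 methyltransferase, together with eGFP. Both groups thus carry MLL-AF9 and an eGFP vector, and c-Kit, the stem cell factor receptor, was used to enrich both. Per the methods of the study, cells sorted for eGFP had been transplanted into sublethally irradiated mice, so blood cells of the host can be among those of the marrow. All 4 libraries carry the same batch label, and the labels do not say how many mice gave each library, so p-values measure the spread between these libraries, which may be technical. Values below are given in the order control replicates 3 and 4, then SUV-OE replicates 2 and 3. In bulk RNA, fewer cells of a type and less RNA per cell cannot be told apart.

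Core histones H2A, H2B, H3 and H4 form the nucleosome, and H1, the linker histone, binds DNA where it enters and leaves it. Most of their genes lie in clusters of many near-identical copies and are transcribed in S phase, when newly replicated DNA must be packed. Their mRNAs are unusual in that they end in a conserved stem-loop in place of a poly(A) tail, and the stem-loop is bound by SLBP. Some of these genes can also make polyadenylated transcripts that run past the stem-loop, and the TruSeq RNA v2 kit used here selects poly(A) RNA. The FPKM of a histone cluster gene in these libraries is therefore the level of whatever part of its RNA passed that selection.

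The stem-loops are shown first, because they set these mRNAs apart from other mRNAs. Positions are those of mm10. The histone stem-loop motif, 16 bases with a loop of 4 between stem arms of 6, was searched on the sense strand of the GENCODE M21 transcripts. It was present in 39 of the 58 genes and in 68 of all 21901 genes with a protein-coding transcript, or 0.31%. In the other 19 genes its absence cannot be told from an annotation that stops before it. Hist1h4k and Hist1h2bl, for example, have only 312 and 381 annotated exon bases. The 39 genes carried 8 forms, of which the most frequent ones are printed as DNA, 5′ to 3′, with the 6 bases of each stem arm in capitals and the loop of 4 bases in lower case.
Shared by 21 genes of classes H1, H2A, H2B and H3, for example Hist1h2bg at chr13:23571843-23571858 on the plus strand: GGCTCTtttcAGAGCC
Shared by 5 genes of classes H2B and H3, for example Hist1h3c at chr13:23745047-23745062 on the minus strand: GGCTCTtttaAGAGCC
Shared by 7 H4 genes, for example Hist1h4n at chr13:21831798-21831813 on the minus strand: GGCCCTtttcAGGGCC
Shared by Hist1h4i and Hist2h4, for Hist1h4i at chr13:22040966-22040981 on the minus strand: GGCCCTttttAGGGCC
In the H4 genes shown the stem arms differ from those of the other classes. The annotated transcript ended within 100 bases after the stem-loop in 19 genes and ran further in 20. Where several annotated transcripts held the stem-loop, the shortest was used.

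Promoters were read from RefSeq for 49 of the 58 genes (50 promoters), as the 250 bases before the start in GRCm38.p6. The CCAAT box was present on either strand in 41 of 50 (82.0%), against 33.8% of 32851 promoters of the same length over all genes. By class it was in every promoter of H1 (5), H2A (13) and H2B (13), in 7 of 8 of H3 and in 3 of 11 of H4. TATAAA was present in 26 of 50 promoters (52.0%), against 12.4% of all promoters. The octamer ATTTGCAT, known from H2B promoters, was present in 10 of 50, against 1.60% of all promoters, with 6 in H2A genes and 4 in H2B genes. Promoters of neighbouring genes overlap, so the 10 octamers are 8 distinct sites, and the 115 matches to the CCAAT box are 88. Both strands were searched and the 3 motifs do not overlap one another in the promoters printed. The promoters of Hist1h2bg, Hist1h3c and Hist3h2ba are printed 5′ to 3′ on the strand of the gene, without bases that GENCODE M21 puts in an exon, because the first 2 are the genes of highest mean FPKM in classes H2B and H3 and the third is the 1 gene whose SUV-OE libraries both lay above control. Capitals mark the 3 motifs on either strand.
Hist1h2bg, plus strand, chr13:23571221-23571395: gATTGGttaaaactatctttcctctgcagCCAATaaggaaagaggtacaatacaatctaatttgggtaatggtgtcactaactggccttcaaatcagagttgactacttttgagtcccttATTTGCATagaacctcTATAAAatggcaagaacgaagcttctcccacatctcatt
Hist1h3c, minus strand, chr13:23745603-23745771: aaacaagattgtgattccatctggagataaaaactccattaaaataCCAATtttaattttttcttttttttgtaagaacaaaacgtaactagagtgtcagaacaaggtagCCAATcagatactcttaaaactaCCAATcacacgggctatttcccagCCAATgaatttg
Hist3h2ba, plus strand, chr11:58948661-58948910: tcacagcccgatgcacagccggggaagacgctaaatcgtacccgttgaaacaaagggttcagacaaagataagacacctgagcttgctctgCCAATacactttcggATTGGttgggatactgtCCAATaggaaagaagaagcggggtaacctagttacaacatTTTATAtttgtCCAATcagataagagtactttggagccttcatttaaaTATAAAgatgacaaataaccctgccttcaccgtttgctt
The Hist1h2bg stretch is the whole region between its start and that of Hist1h2ae, and it holds the octamer and TATAAA close to the start and the CCAAT box once on each strand. The Hist1h3c stretch holds the CCAAT box 4 times and no TATAAA, and that of Hist3h2ba holds the CCAAT box 4 times and TATAAA once on each strand. A match is a description of the letters only.

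The labels were checked on the targeted gene. Suv39h1 stood at 12.4 FPKM in both control replicates and at 75.3 and 81.2 in SUV-OE cells (log2 fold change 2.56, standard error 0.11, limma adjusted p = 0.00866). The factor by which the FPKM had been divided, recovered from the steps between values, ranged from 16873770 to 19453058 reads per library, at which 3 reads on 1 kb of exons give an FPKM of 0.154 to 0.178. At this depth 38 of the 58 genes had a mean of at least 10 recovered reads, so that the low members rest on few reads. These reads may be understated for the 19 members that were not whole at the GENCODE M21 length, as their smallest fitting length was taken. Reads of the 58 genes summed to 6111 and 2611 in control cells and to 2832 and 3731 in SUV-OE cells. Floors cover counting error only.

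Most histone cluster genes had lower FPKM in SUV-OE than in control cells, and none of them passed the test. Over all 58 genes, 51 had a lower mean log2(FPKM + 1) in SUV-OE and 7 a higher one, with a median log2 fold change of -0.32 against 0.01 over all 23552 rows. Both SUV-OE libraries lay below both control libraries in 31 of the 58 genes, where this held for 21.9% of all rows. Both lay above in 1 of the 58, where this held for 25.7% of all rows. Hist3h2ba was that gene. By cluster, 47 of the 50 Hist1 genes were lower and 30 of them did not overlap with control, whereas 2 of the 4 Hist2 genes and 2 of the 3 Hist3 genes had a higher mean.

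Of the 58 genes, 45 averaged 0.5 FPKM or more over the 4 libraries and were tested with limma among 13736 genes. None was called at a Benjamini-Hochberg adjusted p under 0.05 with a fold of 2 or more in either direction, where 0.815% of the genes tested were called higher and 0.408% lower. limma-voom on the recovered reads called 0 of the 22 genes it could test at the GENCODE M21 length, and 0 of 38 with genes at other lengths added. At an unadjusted p under 0.05, 15 of the 45 were lower (10.4% of all genes tested) and 1 was higher (10.3%). The lower ones numbered 12 and 21 without control replicates 3 and 4 (12.8% and 14.9% of all genes tested) and 6 and 8 without SUV-OE replicates 2 and 3 (2.9% and 3.6%), and they were 4 of 22 and 7 of 38 in the limma-voom fits (7.1% and 6.7%). In 26 of the 45 both SUV-OE libraries lay below both control libraries (28.4% of the genes tested) and in 1 both lay above (25.4%). The smallest limma adjusted p was 0.0856, for Hist1h3a.

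**Figure D1:**
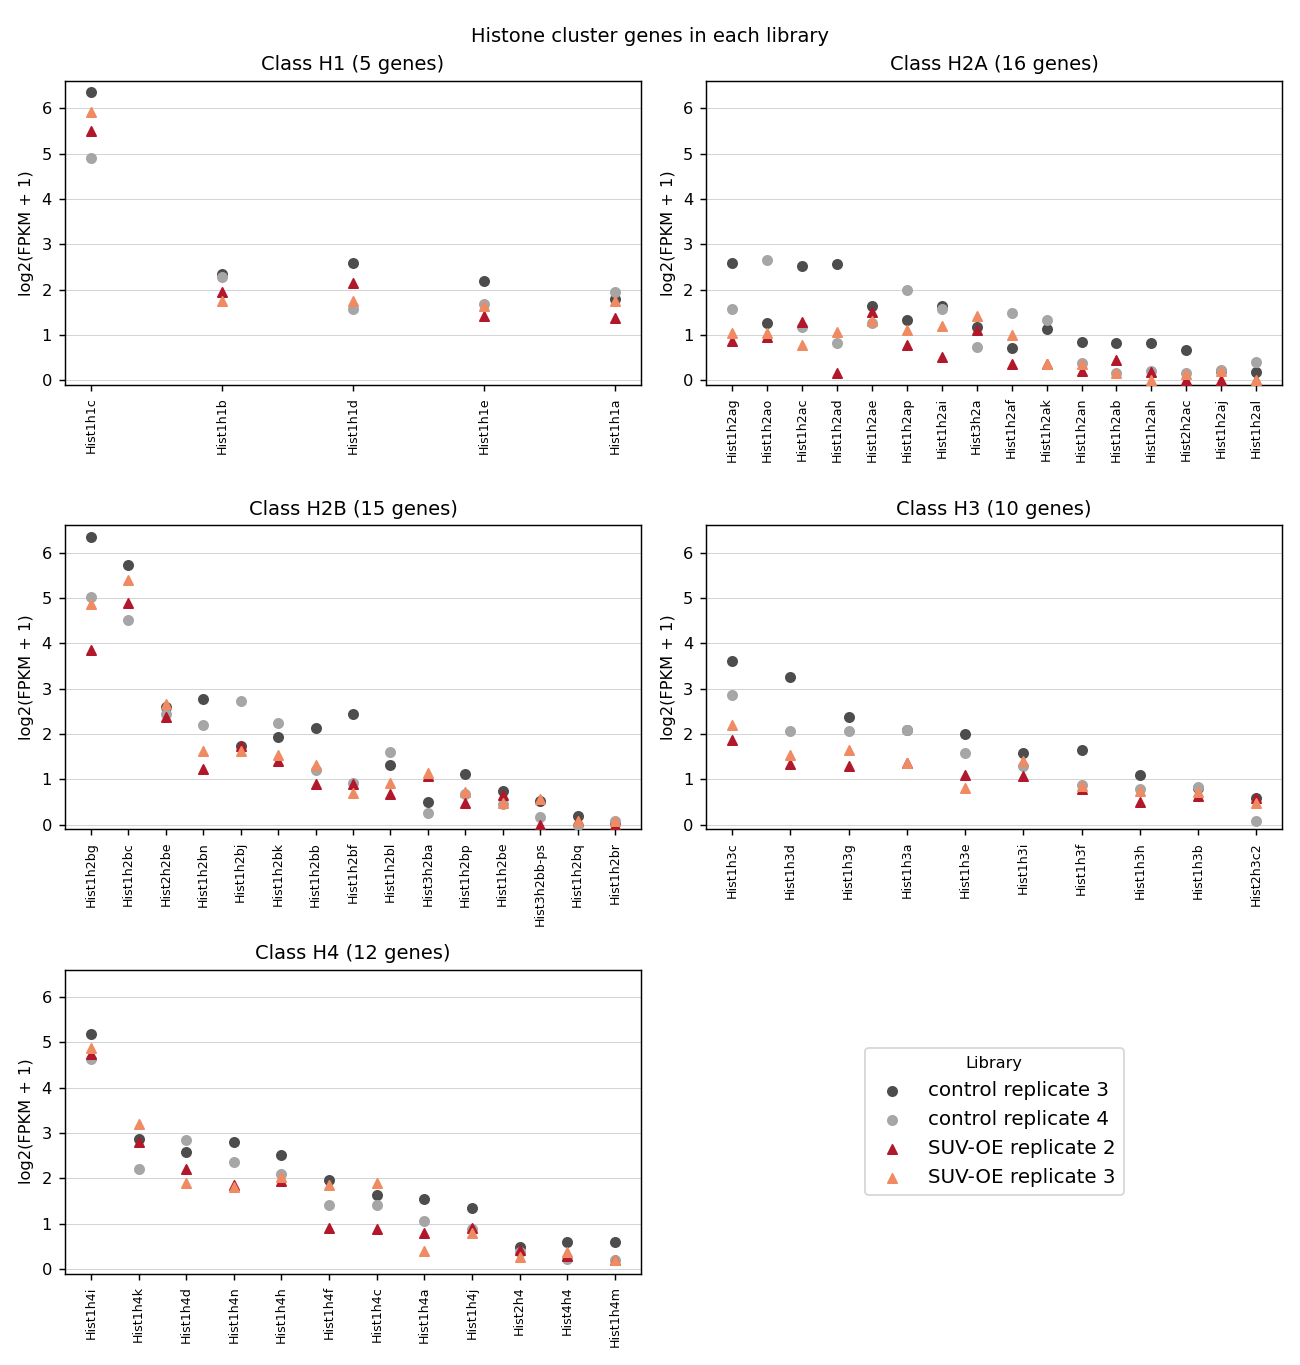
FPKM of the 58 histone cluster genes on a log2(FPKM + 1) scale, 1 panel per class, genes ordered by their mean FPKM, with circles for the 2 control and triangles for the 2 SUV-OE libraries. Control replicate 3 is the highest library for many genes, 4 genes stand above an FPKM of 20 on average, and most H3 genes have both triangles below both circles.

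The 2 control libraries differed from each other in these genes. Control replicate 3 lay above control replicate 4 in 45 of the 58 genes, where this held for 49.8% of the genes tested. Summed over the 58 genes, the level was 388.6 and 205.8 FPKM in control cells against 174.2 and 232.5 in SUV-OE cells, so that the sums overlap and control replicate 3 stands alone. Without control replicate 3, the median log2 fold change of the 45 genes tested was -0.16 in place of -0.46 and 35 of them were lower. In both SUV-OE libraries 27 then lay below control replicate 4 (43.4% of all genes tested) and 9 above it (38.8%). Over all genes tested the median was -0.02 with control replicate 3 and -0.01 without it. Without SUV-OE replicate 2, 5 of the 45 lay above control (33.0% of all genes tested).

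Markers of other cells differed between the libraries as well. All 8 late neutrophil markers, such as Ltf and S100a8, were higher in SUV-OE without overlap (25.4% of all genes tested) and 1 of them, Ltf, was called, and their summed level was 727.4 and 2335 FPKM in control cells against 6532 and 7951 in SUV-OE cells. The 7 B-lymphoid markers summed to 18.5 and 27.5 in control cells and to 35.8 and 79.4 in SUV-OE cells, with 6 of 7 higher without overlap (25.4%). The 8 erythroid markers summed to 13.8 and 139.0 in control cells and to 96.7 and 67.1 in SUV-OE cells, so these sums overlapped. On log2(FPKM + 1) all 8 means were higher, and 3 genes lay above control without overlap (25.4%). In FPKM this did not hold for every gene, as Hba-a2 stood at 0.539 and 12.2 in control cells and at 4.56 and 3.29 in SUV-OE cells. Of the 6 T and NK markers, 1 (Nkg7) passed the filter and the others, Cd3e, Cd3d, Cd3g, Trac and Klrb1c, did not. The myeloid leukemic progenitor markers Kit, Ptprc, Mpo, Hoxa9 and Meis1 were all present, with sums of 475.4 and 442.5 FPKM in control cells and 402.8 and 442.7 in SUV-OE cells. Most of this sum is Mpo, which with Hoxa9 lay below control without overlap, while Kit, Ptprc and Meis1 lay above it. The part of these cells in the histone values was not tested.

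In class H3, 9 of the 10 genes had a lower mean in SUV-OE, and of the 9 genes tested all were lower and 8 without overlap (28.4% of all genes tested). H3 carries the lysine that Suv39h1 methylates. Hist1h3c stood at 11.2 and 6.30 FPKM in control cells and at 2.65 and 3.57 in SUV-OE cells. The log2 fold change came to -1.21 (standard error 0.29, limma adjusted p = 0.128). Both SUV-OE libraries lay below the lower control library, and the fold change without control replicate 3 was -0.84. Hist1h3d stood at 8.54 and 3.17 FPKM in control cells and at 1.51 and 1.91 in SUV-OE cells (log2 fold change -1.22, standard error 0.41, limma adjusted p = 0.201), and -0.63 without control replicate 3. Hist1h3g stood at 4.21 and 3.19 FPKM in control cells and at 1.45 and 2.11 in SUV-OE cells (log2 fold change -0.76). In Hist1h3a the libraries of each group were close, at 3.27 and 3.22 FPKM for control cells and 1.58 in both SUV-OE libraries. The log2 fold change came to -0.72 (standard error 0.13), the limma adjusted p ranged from 0.0721 to 0.208 over the alternatives that kept all 4 libraries, and the fold change without control replicate 3 was -0.71. The other tested genes of the class, Hist1h3e, Hist1h3f, Hist1h3h, Hist1h3b and Hist1h3i, had log2 fold changes from -0.84 to -0.14, and from -0.63 to -0.05 without control replicate 3. Hist1h3i was the 1 tested H3 gene whose groups overlapped. Hist2h3c2, of the Hist2 cluster, was the 1 gene of the class with a higher mean, did not pass the filter and had 10 and 1 recovered reads in control cells, next to 9 and 7 in SUV-OE cells. The median of the tested H3 genes was -0.72, and -0.60 without control replicate 3.

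Class H2A held the largest number of genes, all of them low, since the highest mean was 2.20 FPKM (Hist1h2ag) and 6 of the 16 did not pass the filter. In 15 of the 16 the mean was lower in SUV-OE, and in 9 the groups did not overlap (21.9% of all rows). Hist1h2ag stood at 4.98 and 1.96 FPKM in control cells and at 0.813 and 1.04 in SUV-OE cells (log2 fold change -1.13, standard error 0.36, limma adjusted p = 0.188, and -0.62 without control replicate 3). Hist1h2ao stood at 1.39 and 5.31 FPKM in control cells and at 0.939 and 1.05 in SUV-OE cells (log2 fold change -0.96, -1.66 without control replicate 3 and -0.26 without control replicate 4). The higher control library was thus replicate 3 in one of these genes and replicate 4 in the other, while the SUV-OE libraries were lower in both. Hist1h2ad stood at 4.89 and 0.768 FPKM in control cells and at 0.122 and 1.09 in SUV-OE cells (log2 fold change -1.07, -0.21 and -1.94 without control replicates 3 and 4, and -0.62 without SUV-OE replicate 2). Hist1h2ac stood at 4.75 and 1.25 FPKM in control cells and at 1.42 and 0.709 in SUV-OE cells (log2 fold change -0.82, and -0.14 and -1.50 without control replicates 3 and 4). In both of these genes the groups overlapped, and the size of the difference depended on which control library was kept. Hist1h2ak, at 1.18 and 1.51 FPKM in control cells and 0.287 and 0.286 in SUV-OE cells, had the smallest adjusted p of the class (log2 fold change -0.86, standard error 0.17, limma adjusted p = 0.0983), from 10 recovered reads or fewer in each library. Hist3h2a, of the Hist3 cluster, was the 1 H2A gene with a higher mean, with 1.27 and 0.663 FPKM in control cells against 1.16 and 1.65 in SUV-OE cells (log2 fold change 0.30, 0.52 and 0.07 without control replicates 3 and 4, and 0.45 and 0.15 without SUV-OE replicates 2 and 3), and its groups overlapped. It shares 708 exon bases with Trim17 on the same strand, so reads of the 2 genes may have been split. Hist1h2al had 1 and 2 recovered reads in control and 0 in both SUV-OE libraries, at a length that is not that of GENCODE M21, and no fold is given.

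Class H2B held the members with the widest range of differences, from -1.32 to 0.72. Hist1h2bg had the largest difference of all 58 genes on the log2(FPKM + 1) scale, but not with a pseudocount of 0.1 (-1.36, against -2.02 for Hist1h2ad), at 80.6 and 31.4 FPKM in control cells and 13.5 and 28.2 in SUV-OE cells (log2 fold change -1.32, standard error 0.55, limma adjusted p = 0.267). The 2 libraries of each group differed by more than 2-fold from each other, the nearest libraries of the 2 groups were close, and the value was -0.66 and -1.99 without control replicates 3 and 4, and -0.82 and -1.83 without SUV-OE replicates 2 and 3. Hist1h2bn stood at 5.80 and 3.58 FPKM in control cells and at 1.33 and 2.07 in SUV-OE cells (log2 fold change -1.06, standard error 0.26, limma adjusted p = 0.133). Hist1h2bc stood at 52.0 and 22.0 FPKM in control cells and at 28.5 and 41.4 in SUV-OE cells, with a log2 fold change of 0.02 (0.62 and -0.58 without control replicates 3 and 4, and 0.28 and -0.24 without SUV-OE replicates 2 and 3). Hist2h2be stood at 5.08 and 4.39 FPKM in control cells and at 4.22 and 5.30 in SUV-OE cells, with a log2 fold change of 0.0023. In both of these genes the libraries of the groups overlapped. Hist3h2ba stood at 0.419 and 0.193 FPKM in control cells and at 1.10 and 1.19 in SUV-OE cells (log2 fold change 0.72, standard error 0.18, limma adjusted p = 0.139, 0.107 to 0.213 over the alternatives with all 4 libraries). These values came from 5 and 2 recovered reads in control cells and from 12 and 13 in SUV-OE cells. Of the 12 H2B genes tested, 9 were lower and 6 lay below control without overlap (28.4% of all genes tested), with a median of -0.56, and of -0.12 without control replicate 3.

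Class H4 had 8 of 9 tested genes lower, 4 of them without overlap (28.4% of all genes tested). The median was -0.31, or -0.04 without control replicate 3. Of the lower genes, Hist1h4c (-0.12) and Hist1h4f (-0.32) turned to 0.37 and 0.16 without SUV-OE replicate 2. Hist1h4n stood at 5.98 and 4.13 FPKM in control cells and at 2.62 and 2.49 in SUV-OE cells (log2 fold change -0.75, standard error 0.19, limma adjusted p = 0.139). Hist1h4d stood at 4.97 and 6.18 FPKM in control cells and at 3.58 and 2.72 in SUV-OE cells (log2 fold change -0.67, limma adjusted p = 0.148). In both of these the control libraries were the 2 higher ones, and their fold changes without control replicate 3 were -0.53 and -0.80. Hist1h4i, the H4 gene of highest FPKM, had 35.3 and 24.0 FPKM in control cells against 25.6 and 28.2 in SUV-OE cells (log2 fold change -0.11, 0.16 and -0.38 without control replicates 3 and 4, and -0.05 and -0.18 without SUV-OE replicates 2 and 3), within the control range. Hist1h4k stood at 6.26 and 3.61 FPKM in control cells and at 5.96 and 8.11 in SUV-OE cells (log2 fold change 0.46, standard error 0.27, limma adjusted p = 0.399, 0.79 and 0.13 without control replicates 3 and 4, and 0.27 without SUV-OE replicate 3), and its groups overlapped. The H4 protein is encoded by several genes, and the fold changes of those tested ran from -0.75 to 0.46.

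Class H1, the linker histones, had 4 of 5 genes lower and a median of -0.32, or -0.16 without control replicate 3. Hist1h1c, the gene of highest mean FPKM of all 58, had 80.8 and 29.1 FPKM in control cells against 43.9 and 59.6 in SUV-OE cells (log2 fold change 0.07, standard error 0.50, 0.79 and -0.65 without control replicates 3 and 4, and 0.29 and -0.15 without SUV-OE replicates 2 and 3). Its SUV-OE libraries lay between the control libraries. Hist1h1b stood at 4.08 and 3.83 FPKM in control cells and at 2.88 and 2.35 in SUV-OE cells (log2 fold change -0.46, standard error 0.14, limma adjusted p = 0.181), without overlap. Hist1h1d had 4.97 and 1.99 FPKM in control cells against 3.41 and 2.34 in SUV-OE cells (log2 fold change -0.14, 0.36 and -0.64 without control replicates 3 and 4, and -0.34 and 0.06 without SUV-OE replicates 2 and 3). Hist1h1e had 3.57 and 2.22 FPKM in control cells against 1.66 and 2.11 in SUV-OE cells (log2 fold change -0.42, and -0.16 and -0.67 without control replicates 3 and 4). Hist1h1e shares 496 exon bases with Hist1h2be on the same strand. The fifth gene, Hist1h1a, had 2.48 and 2.86 FPKM in control cells against 1.58 and 2.37 in SUV-OE cells (log2 fold change -0.32, and -0.12 and -0.51 without SUV-OE replicates 2 and 3).

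**Figure D2:**
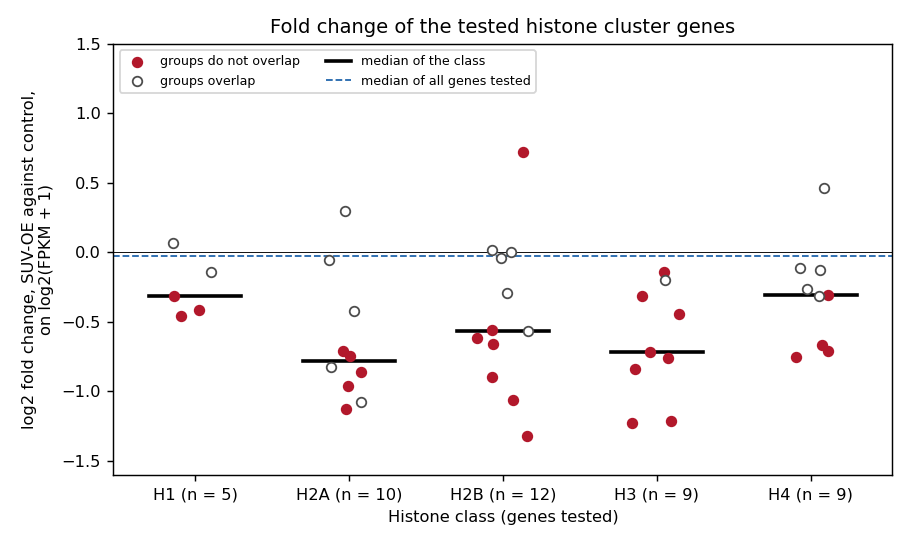
Log2 fold change of SUV-OE against control, on log2(FPKM + 1), for the 45 tested histone cluster genes by class, with filled points where the groups do not overlap, a bar at each class median and a dashed line at the median of all 13736 genes tested (-0.02). The class medians lie at -0.32 (H1), -0.78 (H2A), -0.56 (H2B), -0.72 (H3) and -0.31 (H4), and 1 filled point, Hist3h2ba, lies above 0.

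The 4 genes of highest mean FPKM, Hist1h1c, Hist1h2bc, Hist1h2bg and Hist1h4i, made up most of the summed level in every library. Their FPKM summed to 248.8 and 106.5 in control cells and to 111.4 and 157.4 in SUV-OE cells, so the groups overlapped. The other 54 genes summed to 139.9 and 99.3 in control cells and to 62.8 and 75.1 in SUV-OE cells, so both SUV-OE libraries lay below both control libraries. Within these 54 genes, 49 had a lower mean and 30 lay below control without overlap (21.9% of all rows). For whole classes, the summed FPKM did not overlap in H2A (27.99 and 20.7 against 8.63 and 11.4) and in H3 (36.8 and 21.7 against 11.6 and 14.0). It overlapped in H1 (95.9 and 40.0 against 53.4 and 68.8), in H2B (160.9 and 76.3 against 55.9 and 86.7) and in H4 (67.0 and 47.0 against 44.6 and 51.5).

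**Figure D3:**
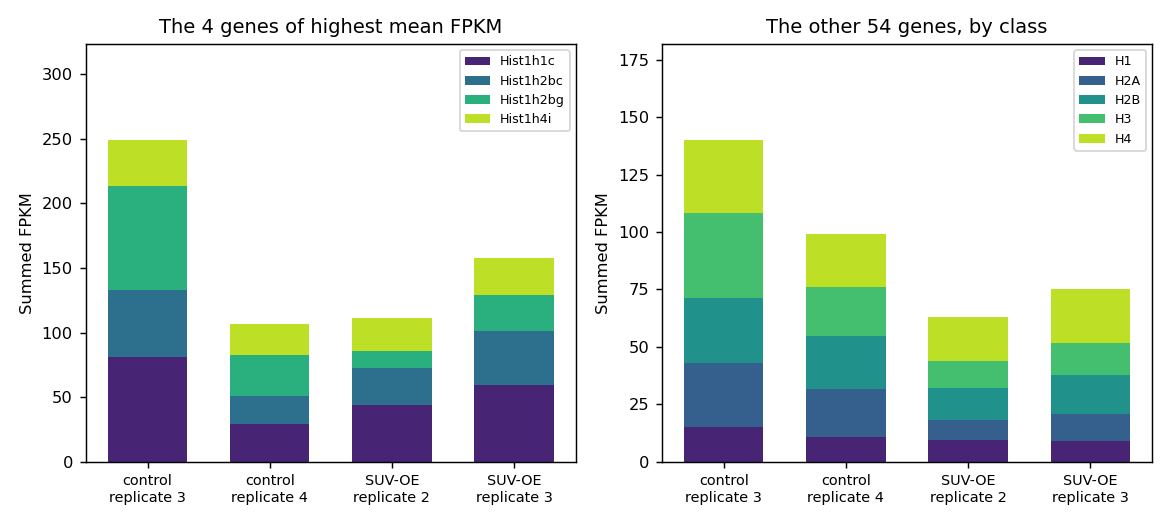
Summed FPKM in each library of the 4 genes with the highest mean FPKM (left, stacked by gene) and of the other 54 genes (right, stacked by class). The left bars of the groups overlap (248.8 and 106.5 in control, 111.4 and 157.4 in SUV-OE), and on the right both SUV-OE bars (62.8 and 75.1) are below both control bars (139.9 and 99.3).

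The genes were also grouped by the end of their annotated transcripts, which the rule did not use. AATAAA, the usual signal for polyadenylation, was present in the last 50 bases of an annotated transcript in 13 genes. In these 13, 9 had a lower and 4 a higher mean, and 1 lay below control without overlap (21.9% of all rows). The 4 with a higher mean of log2(FPKM + 1) were Hist1h1c, Hist2h2be, Hist3h2a and Hist3h2ba. In FPKM, the mean of Hist1h1c was 55.0 in control and 51.7 in SUV-OE cells. The 45 genes without the signal had 42 lower means, with 30 below control without overlap (21.9%). Some of these 45 may lack it only because their annotation stops short, as may be so for Hist1h4k and Hist1h2bl. The median log2 fold change over all members was -0.04 with the signal and -0.44 without it. Among the 39 genes with a stem-loop, 19 had a transcript, the shortest that held it, that ended within 100 bases after it. These 19 were lower in every case, with a median of -0.62 and 14 below control without overlap (21.9% of all rows). Hist1h2bp was among them and also among the 13 with AATAAA, so the 2 splits are not the same. The 20 with a longer annotated end had a median of -0.13, with 16 lower and 7 below control without overlap (21.9%). Without control replicate 3 the median of the tested genes was 0.10 with AATAAA and -0.48 without it (-0.04 and -0.64 with all libraries), and -0.57 for the short and -0.03 for the long ends (-0.71 and -0.26 with all libraries). Both splits were drawn after the values were seen and carry no test. The FPKM of 39 genes gave whole reads at the GENCODE M21 exon length, and those of 17 fitted a shorter and of 2 a longer exon length, so the gene models of the authors may end elsewhere.

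**Figure D4:**
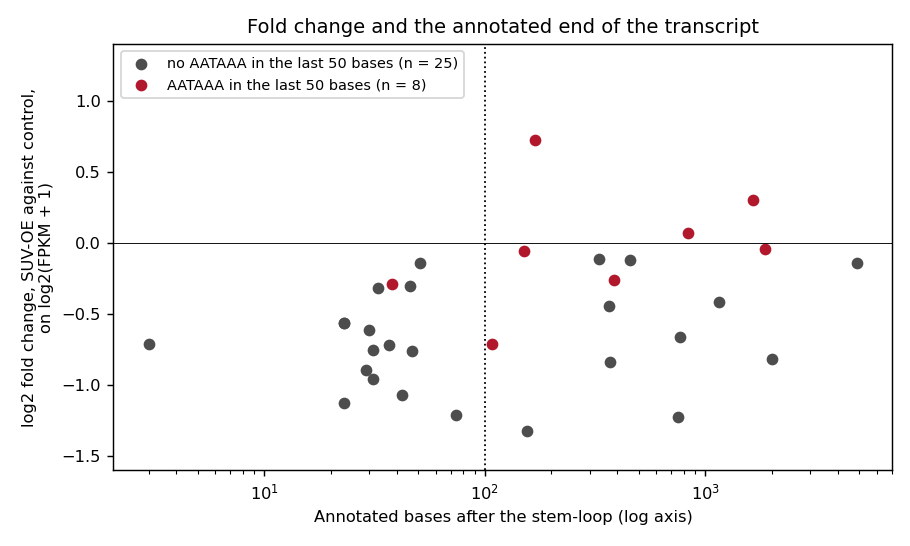
Log2 fold change of the 33 tested histone cluster genes with a stem-loop against the number of annotated bases after it (log axis), in red where AATAAA lies in the last 50 bases, with a dotted line at 100 bases. All points to the left of the line are below 0, and the points above 0 are to its right.

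Many members share sequence. Windows of 100 bases found in a transcript of another gene made up a median of 33.5% of a member's windows, with a class median from 0.79% in H1 to 69.9% in H2A, and 53 of the 58 genes had at least 1 such window. Reads from these windows may have been assigned to one copy or another. In the 36 genes with under 50% of windows shared, 31 had a lower mean and 18 lay below control without overlap (21.9% of all rows), with a median of -0.32, and of -0.42 over those tested (-0.10 without control replicate 3). In the other 22 genes, 20 had a lower mean and 13 lay below control without overlap (21.9%), with a median of -0.37, and of -0.69 over those tested (-0.66 without control replicate 3). The kit does not mark the strand, so reads of overlapping genes on opposite strands cannot be told apart.

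Pairs of members that start next to each other and are transcribed away from each other were also compared, since such pairs share 1 promoter region. There were 12 pairs with starts at most 500 bases apart, each of an H2A and an H2B gene. Both partners had a lower mean in 9 pairs, where 51 of the 58 genes had a lower mean, so many pairs would have this in any pairing. In the pairs with Hist1h2bq and Hist1h2br these 2 genes were lower by only -0.022 and -0.018, from 3 recovered reads or fewer in each library. Whether the partners of a pair move together was not tested. Hist1h2ag and Hist1h2bj (270 bases apart) had log2 fold changes of -1.13 and -0.56 (-0.62 and -1.06 without control replicate 3, and -0.06 for Hist1h2bj without control replicate 4). Hist1h2ak and Hist1h2bn (296 bases apart) had -0.86 and -1.06. In other pairs the partners differed. Hist1h2ae and Hist1h2bg, whose starts are 176 bases apart at the ends of the stretch printed above, had -0.05 and -1.32 (0.13 and -0.66 without control replicate 3). Hist1h2ac and Hist1h2bc (251 bases apart) had -0.82 and 0.02 (-0.14 and 0.62 without control replicate 3).

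Genes that make and process histone mRNA were compared next. Of 28 listed genes, 26 were in the table and 25 were tested, with 0 called by limma, 20 lower and 5 higher, and 5 lower (10.4% of all genes tested) and 0 higher at an unadjusted p under 0.05. The median was -0.13, and 12 lay below control without overlap (28.4% of all genes tested) and 0 above (25.4%). Slbp, which binds the stem-loop, stood at 19.5 and 23.5 FPKM in control cells and at 14.9 and 17.2 in SUV-OE cells (log2 fold change -0.40, standard error 0.15, limma adjusted p = 0.226). Npat, the coactivator of histone gene transcription, had 8.66 and 8.67 FPKM in control cells against 7.60 and 8.15 in SUV-OE cells (log2 fold change -0.12). Lsm1, Snrpd3 and Cstf2, of RNA decay, splicing and 3′ end formation, had log2 fold changes of -0.40, -0.38 and -0.37. None of these passed the test. Of the 23 histone chaperone genes tested, 19 were lower, 14 lay below control without overlap (28.4% of all genes tested) and 4 above (Ubn2, Daxx, Atrx and Nap1l1, 25.4%), 0 were called by limma and 7 were lower at an unadjusted p under 0.05 (10.4%), with a median of -0.21.

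The histone genes outside the clusters are made throughout the cell cycle and most of their mRNAs are polyadenylated. All 11 listed were tested, 0 were called by limma, 3 were lower and 1 higher at an unadjusted p under 0.05 (10.4% and 10.3% of all genes tested), 6 were lower and 5 higher, with a median of -0.01. H2afz, which encodes the variant H2A.Z, stood at 566.0 and 567.8 FPKM in control cells and at 310.8 and 370.9 in SUV-OE cells (log2 fold change -0.74, standard error 0.20, limma adjusted p = 0.154). H2afj had 32.3 and 27.5 FPKM in control cells against 16.7 and 19.7 in SUV-OE cells (log2 fold change -0.69). H2afy2, which encodes a macroH2A, had 13.4 and 9.75 FPKM in control cells against 3.99 and 4.16 in SUV-OE cells (log2 fold change -1.29, standard error 0.17, limma adjusted p = 0.0560), with an adjusted p from 0.0178 to 0.138 over the alternatives with all 4 libraries. H1fx encodes a linker histone variant and had 1.82 and 1.75 FPKM in control cells against 4.58 and 3.10 in SUV-OE cells (log2 fold change 0.78, limma adjusted p = 0.136). H1f0 had 101.3 and 55.7 FPKM in control cells against 111.2 and 95.9 in SUV-OE cells (log2 fold change 0.45, 0.88 without control replicate 3 and 0.03 without control replicate 4). The H3.3 genes H3f3a and H3f3b had log2 fold changes of -0.44 and -0.32, which were -0.24 and -0.06 without control replicate 3. That of H3f3b was -0.57 without control replicate 4, and -0.10 and -0.53 without SUV-OE replicates 2 and 3. H2afx, which has both a stem-loop and a poly(A) form, had 87.6 and 53.5 FPKM in control cells against 71.5 and 67.2 in SUV-OE cells (log2 fold change 0.02, 0.37 without control replicate 3 and -0.33 without control replicate 4).

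The S-phase list, of genes for DNA replication and nucleotide supply, was set beside the histone genes because cluster histones are made in that phase. All 25 genes were tested and lower in SUV-OE, 24 without overlap (28.4% of the genes tested), and 15 had an unadjusted p under 0.05 (10.4%). The median on log2(FPKM + 1) was -0.47, against -0.46 for the tested histone cluster genes and -0.02 for all genes tested. This scale understates the change of low genes, as most of the histone genes are. The histone median was -0.74 with a pseudocount of 0.1, and -0.69 over the 22 genes that limma-voom tested. It was -0.16 without control replicate 3. The S-phase median is not given for these settings, so the 2 medians are not shown to be alike beyond this scale. None of the S-phase genes was called by limma. The summed level of the S-phase genes was 1733 and 1533 FPKM in control cells against 1104 and 1242 in SUV-OE cells, so that here control replicate 3 did not stand apart as it did in the histone genes.

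**Figure D5:**
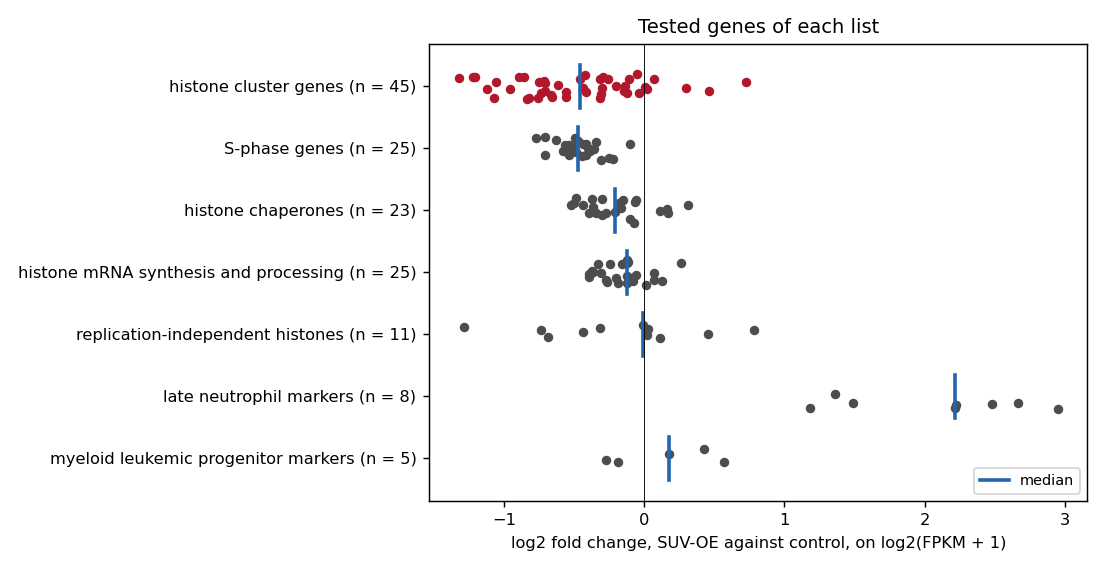
Log2 fold change of SUV-OE against control, on log2(FPKM + 1), for the tested genes of each list, 1 point per gene with a bar at the median. The histone cluster genes (median -0.46) and the S-phase genes (-0.47) lie mostly below 0, the replication-independent histones spread around 0 (-0.01), and the late neutrophil markers all lie above 0 (2.22). This scale understates the change of low genes.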

How the data were processed

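RNA-Seq libraries were prepared by the authors with the TruSeq RNA v2 kit, which selects poly(A) RNA and does not mark the strand. Per the labels and methods, reads were processed with CASAVA 1.8 and aligned to mm10 with TopHat2. The deposited table holds FPKM for 23552 genes in each of the 4 libraries, which the methods of the authors describe as computed with Cufflinks. The annotation release is not given in the sources used here.

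FPKM were compared as log2(FPKM + 1) with limma 3.58.1 in R 4.3.3, over the 13736 genes that averaged 0.5 FPKM or more, with the group as the only term and an intensity trend. Calls needed a Benjamini-Hochberg adjusted p under 0.05 with a fold of 2 or more in either direction. The study used DESeq2, which needs counts and was not run. Fold changes on this scale understate the change of low genes. With 2 against 2 libraries an exact permutation test cannot give a two-sided p below 0.333, so none was run.

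Symbols, positions, exon lengths and transcripts came from GENCODE M21 (mm10), with a match for 23438 rows, and promoters from RefSeq (GRCm38.p6). In 78.5% of genes all 4 FPKM were whole reads, to within 0.01, when the exon length of GENCODE M21 was used. A further 4929 genes were whole at another exon length, of which the smallest was taken, so their reads are understated where the true length is a multiple of it. Such whole steps would also come from counts divided by length, so the use of Cufflinks for this table is uncertain. These reads were used in limma-voom (mean of at least 10 reads) and for depth. The first such fit took genes at the GENCODE M21 length, and in the second genes at other lengths were added after the data were seen. Scripts were tested on simulated data.

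The members, gene lists and rules were chosen with earlier results of these data known. Named genes were the 4 members of highest mean FPKM per class, the member per class with the largest non-overlapping difference in each direction, the 4 genes of the histone mRNA and replication-independent lists with the largest fold changes, and Suv39h1, Slbp, Npat, H2afx, H2afz, H3f3a, H3f3b and H1f0. Members named beside these, the pairs and the transcript features were chosen after their values were seen.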

Additional observations from a re-analysis of the deposited data

How the results depend on the processing

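The alternatives were a pseudocount of 0.1, no filter, a filter at 1 FPKM, median-of-ratios scaling, quantile normalization, no trend, a robust trend, limma-voom and leaving out each library in turn. The number of histone cluster genes called stayed at 0 in each of them. Over all genes tested, 112 were called higher and 56 lower, and 74 and 42 with a pseudocount of 0.1, 446 and 103 with limma-voom, 615 and 131 with genes at other lengths added, and 0 with no filter or with any 1 library left out, so that these last settings say nothing of the members. The median log2 fold change of the tested members was -0.46, and it was -0.74 with a pseudocount of 0.1, -0.69 with limma-voom, and -0.66 with limma-voom when genes at other lengths were added. It ranged from -0.53 to -0.16 when 1 library was left out, the value nearest 0 being without control replicate 3. The members below control without overlap numbered 26, and 11 and 17 in the 2 limma-voom fits, which tested 22 and 38 members (20.1% and 20.5% of all genes tested). They ranged from 27 to 39 when 1 library was left out (36.4% to 43.7% of all genes), which can only keep or raise such a count. The members above control without overlap numbered 1, and 0 with the filter at 1 FPKM, since Hist3h2ba did not pass that filter, and ranged from 1 to 9 when 1 library was left out (9 without control replicate 3, 5 without SUV-OE replicate 2, 33.0% to 40.3% of all genes). No paired analysis was possible because replicate number 3 is the only one that both groups have.

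Genes near 0 changed sign. Hist2h2be was at -0.056 with quantile normalization and at -0.0080 with median-of-ratios scaling, and Hist1h4i at 0.0010 with quantile normalization. With 1 library left out, the log2 fold change ranged from -0.65 to 0.79 in Hist1h1c, from -0.64 to 0.36 in Hist1h1d, from -0.58 to 0.62 in Hist1h2bc, from -0.13 to 0.14 in Hist2h2be, from -0.38 to 0.16 in Hist1h4i and from -0.33 to 0.37 in H2afx. Of the genes just named, the sign turned without control replicate 3 in Hist1h1d and Hist1h4i. It turned without control replicate 4 in Hist1h1c, Hist1h2bc, Hist2h2be and H2afx. Without SUV-OE replicate 3 it turned in Hist1h1c, Hist1h1d, Hist1h2bc and Hist2h2be, and without SUV-OE replicate 2 in H2afx. Among other tested members, Hist1h2ae and Hist1h2be turned to 0.13 and 0.095 without control replicate 3. Both turned to 0.046 without SUV-OE replicate 3. Hist1h4c and Hist1h4f turned to 0.37 and 0.16 without SUV-OE replicate 2. The cause was not tested.

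H2afy2 passed the threshold with the filter at 1 FPKM, with quantile normalization, with a robust trend and in both limma-voom fits. Suv39h1 did not pass it without the filter or with 1 library left out, at log2 fold changes of 2.51 to 2.62. Depth limits the low members, of which 20 had a mean under 10 recovered reads, and 2 libraries per group limit every p-value.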
